A study of Homo sapiens with 12 samples.

Results

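The gemcitabine uptake and metabolism genes described here are 9 genes of 19775 measured: the carriers SLC29A1, SLC29A2, SLC28A1 and SLC28A3, the kinase DCK, the deaminases CDA and DCTD, the nucleotidase NT5C3A and the ribonucleotide reductase subunit RRM1. They were chosen by gene symbol and all 9 were measured, each by at least 1 probe set assigned to that gene alone. RNA came from 2 human pancreatic carcinoma lines, FG and L3.6pl, the latter obtained by repeated passage through mouse pancreas and liver. Each line was grown from frozen stock, typically for 9 days, in the same serum-supplemented medium, and either left in air (normoxia) or kept for the final 24 h at 1% oxygen, with nitrogen displacing the air (hypoxia). The 4 groups had 3 Affymetrix arrays each, 12 in all. The labels name no gemcitabine or other drug treatment, so every value is a transcript level in cells not described as exposed to it. Each line stands for itself only. The labels do not say whether replicates were separate cultures, so the p-values measure the spread between arrays, which may be technical.

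Gemcitabine is a deoxycytidine analogue that enters cells through equilibrative carriers of the SLC29 family and concentrative carriers of the SLC28 family. Deoxycytidine kinase (DCK) adds the first phosphate, the step that limits activation, and the finished triphosphate is built into DNA while the diphosphate inhibits ribonucleotide reductase. Cytidine deaminase (CDA) inactivates the drug itself, dCMP deaminase (DCTD) its monophosphate, and nucleotidases such as NT5C3A can remove the phosphate that DCK adds. These genes are widely studied in pancreatic cancer, where gemcitabine is a standard drug.

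No member passed the test for hypoxia in either line. In L3.6pl, NT5C3A was higher than in FG in normoxia (1.43-fold) and in hypoxia (1.67-fold), and DCTD was higher in hypoxia (1.89-fold). The normoxic NT5C3A difference did not pass in 12 of 25 alternative settings. Values are log2 intensities and differences are log2 fold changes with their standard errors. A gene was called at an adjusted p below 0.05 in limma, with Benjamini-Hochberg adjustment over all 19775 genes. In FG, 0 of 9 members were called for hypoxia, against 10.7% of all genes (4.24% higher and 6.47% lower), and 0 of 9 had an unadjusted p below 0.05. In L3.6pl, 0 of 9 were called against 6.86% of all genes (3.89% higher and 2.97% lower), and 1 of 9, NT5C3A, had an unadjusted p below 0.05. Between the lines, 1 of 9 was called in normoxia, where 10.7% of all genes were called (5.16% higher and 5.54% lower in L3.6pl), and 2 of 9 in hypoxia, where 16.7% were (10% higher and 6.72% lower). For the difference of the hypoxia effects between lines, 0 of 9 were called by limma and 0 had an unadjusted p below 0.05, against 0.0253% of all genes called (0.0152% higher and 0.0101% lower). The members' median change in hypoxia was -0.04 in FG and -0.02 in L3.6pl, beside -0.03 and -0.02 over all genes.

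**Figure D1:**
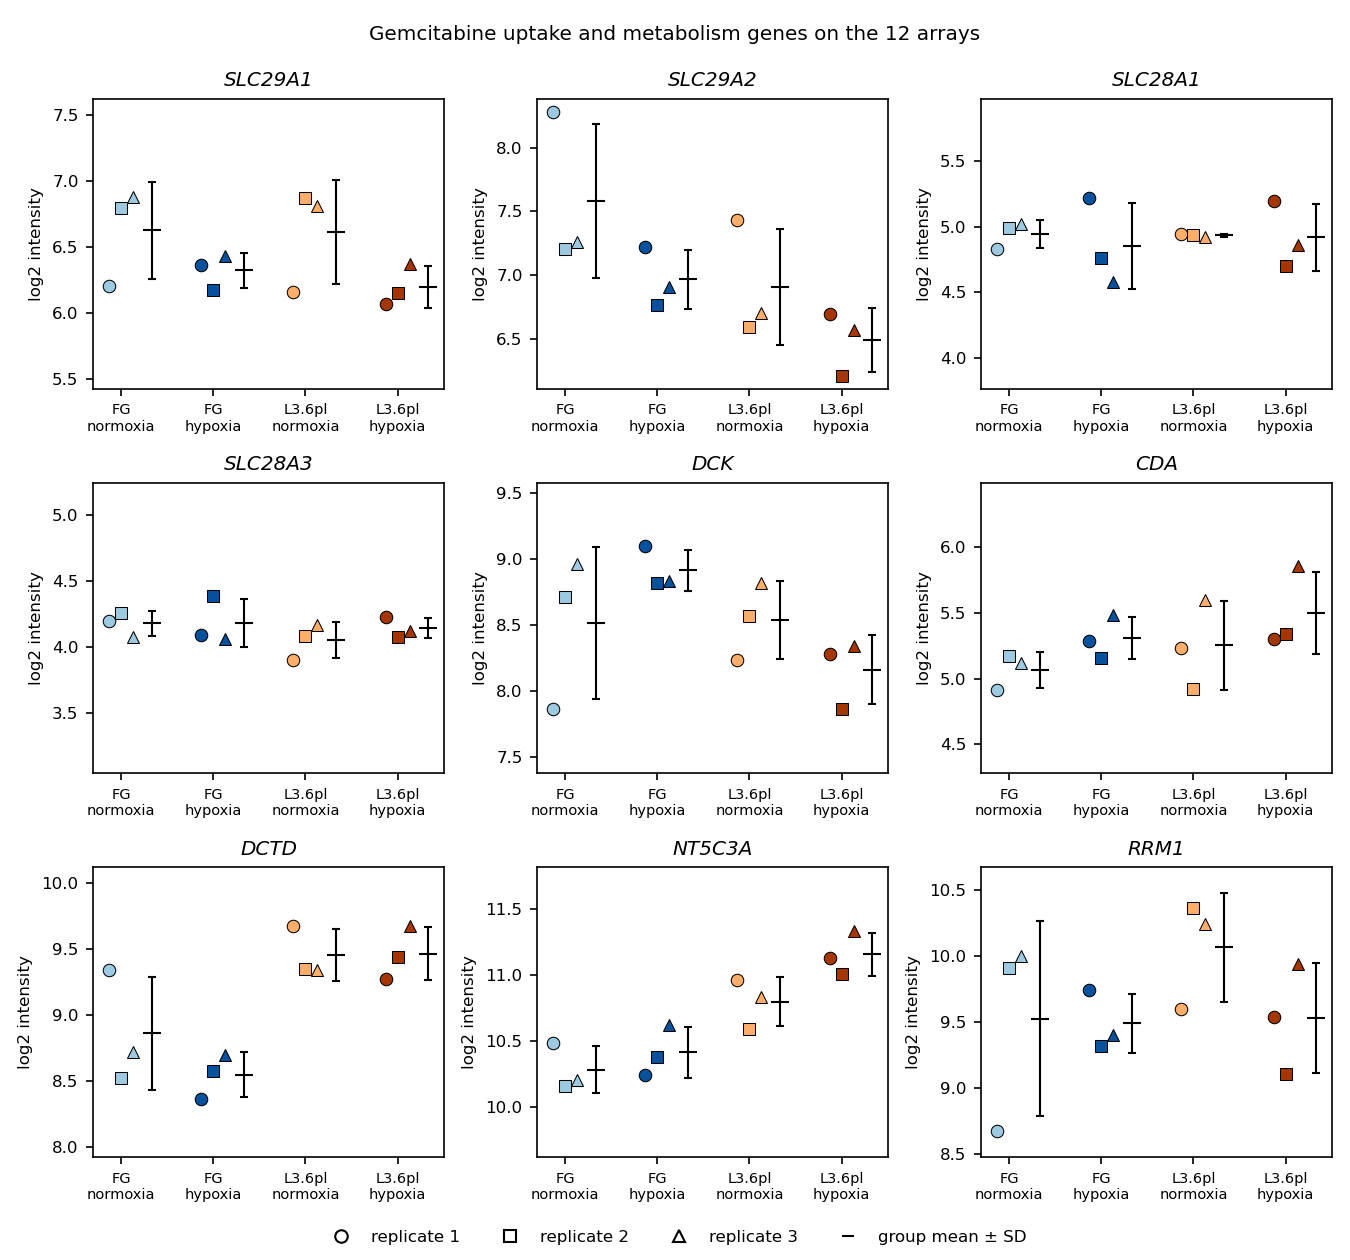
Log2 intensity of the 9 genes on each of the 12 arrays, 1 panel per gene, with the 4 groups along the x axis, marker shape for the replicate number and a bar for the group mean ± SD (n = 3). At the same oxygen level NT5C3A lies higher on every L3.6pl array than on any FG array, as does DCTD in hypoxia, while replicate 1 of both normoxic groups is the lowest normoxic array for SLC29A1, DCK and RRM1.

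The state of the arrays bears on these values. Arrays of one group correlated over all genes at r = 0.974 to 0.996, and the mean r with the group's other arrays was lowest for FG normoxia replicate 1 (0.978) and L3.6pl hypoxia replicate 3 (0.981). A list of 28 proliferation genes had a mean log2 intensity of 8.02, 10.0 and 10.07 on FG normoxia replicates 1 to 3, and of 9.28, 10.19 and 10.08 on those of L3.6pl. In hypoxia it was 9.33, 8.71 and 8.88 in FG and 8.81, 8.38 and 9.07 in L3.6pl. Replicate 1 of both normoxic groups was thus the lowest of its group, and FG normoxia replicate 1 lay below every hypoxic array. These 2 arrays and L3.6pl hypoxia replicate 3 had stood apart in earlier work on these data, and results are given with and without the 3 together. By correlation L3.6pl normoxia replicate 1 did not stand apart. Its mean r was 0.989, above the 0.988 and 0.984 of FG normoxia replicates 2 and 3, which were kept. As a check of the labels, 5 of 5 hypoxia-induced genes (ADM, NDRG1, EGLN3, SLC2A1 and ANGPTL4) rose in both lines. The 6 epithelial markers lay above 6.30, the median of all genes' means, on every array, and 14 of 17 measured markers of other cell types lay below it on every array. The exceptions were COL1A1 and PECAM1, above it on all 12 arrays, and COL3A1, above it on the 6 FG arrays.

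Without the 3 arrays, 1 of 9 members was called in FG, SLC29A1, and 3 of 9 in L3.6pl, SLC29A1, DCK and RRM1, all lower in hypoxia. That fit called 19.6% of all genes in FG (7.06% higher and 12.5% lower) and 21.1% in L3.6pl (7.89% higher and 13.2% lower), and 18 and 26 of the 28 proliferation genes as lower. With all arrays, 0 of the 28 were called in FG (3 had an unadjusted p below 0.05 in limma) and 2 were called lower in L3.6pl. What part the proliferation genes' level has in the members' values was not tested. The members' medians in that fit were -0.07 and 0.02. The 3 arrays were known from these same data. For SLC29A1, DCK, RRM1 and the list mean, each normoxic array left out was the lowest of its group. By the main probe sets, the hypoxic array left out was the highest of its group for all of these. Leaving the 3 out therefore moves these hypoxia differences down by the choice of arrays, and the calls are no independent support for a fall.

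**Figure D2:**
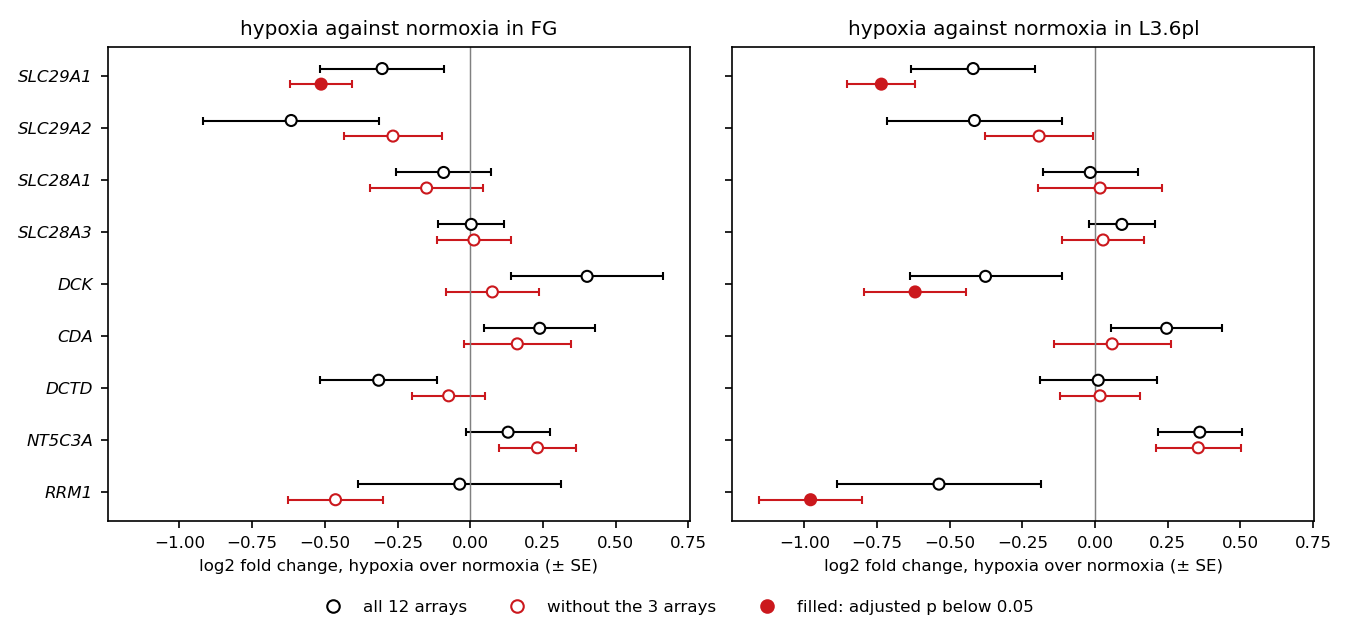
Log2 fold change of hypoxia over normoxia (± SE) for the 9 genes in FG (left) and L3.6pl (right). Black marks the fit with all 12 arrays and red the fit without the 3 arrays that had stood apart in earlier work on these data. Filled points passed the test. No black point is filled, and the red ones that are filled are SLC29A1 in both lines and DCK and RRM1 in L3.6pl.

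The bases upstream of these 3 genes are shown because their calls turn on the arrays that are included, and because the oxygen-regulated factor HIF binds a short core in DNA that can be looked for. Each sequence holds the 250 bases before a RefSeq transcript start (GRCh38.p14), read in the direction of the gene. Capitals mark the core ACGTG or GCGTG, the CCAAT box CCAAT, the cell cycle element TTTGAA and the E2F motif TTTNNCGC, on either strand. For SLC29A1 the first of 2 listed starts is shown, chr6:44219365-44219614 on the plus strand. The DCK window is chr4:70993399-70993648 and the RRM1 window chr11:4094435-4094684, both on the plus strand.
SLC29A1: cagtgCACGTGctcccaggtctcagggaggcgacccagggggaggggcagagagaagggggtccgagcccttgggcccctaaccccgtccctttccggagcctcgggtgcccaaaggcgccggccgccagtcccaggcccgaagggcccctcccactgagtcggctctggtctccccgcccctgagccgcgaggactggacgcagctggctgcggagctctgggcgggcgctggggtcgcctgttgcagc
DCK: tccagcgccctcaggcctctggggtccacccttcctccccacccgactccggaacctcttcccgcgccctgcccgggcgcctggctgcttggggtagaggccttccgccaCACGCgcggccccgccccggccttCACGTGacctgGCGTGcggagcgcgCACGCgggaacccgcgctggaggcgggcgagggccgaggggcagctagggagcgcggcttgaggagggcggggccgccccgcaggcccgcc
RRM1: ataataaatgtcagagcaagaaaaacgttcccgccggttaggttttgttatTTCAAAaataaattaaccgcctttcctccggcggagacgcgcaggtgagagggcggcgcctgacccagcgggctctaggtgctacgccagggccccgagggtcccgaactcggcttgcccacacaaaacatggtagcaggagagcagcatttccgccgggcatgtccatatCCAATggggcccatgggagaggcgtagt
The SLC29A1 window held 2 matches to the core, which are the overlapping strands of 1 palindrome at its far end, and none of the 3 other capitalised motifs. The window of the second SLC29A1 start, not printed, held no core and 1 cell cycle element. In the DCK window, of which 78.0% was G or C, there were 5 matches, 2 of them again 1 palindrome, with none of the others. RRM1 had no core in its window, and 1 CCAAT box and 1 cell cycle element. Of 35116 promoter windows of the same length, 43.2% held the core, 32.0% a CCAAT box, 13.3% the cell cycle element and 5.9% the E2F motif. The shares count windows with at least 1 match, so they give no measure for a count such as the 5 of DCK. These are matches of letters, and binding was not measured. Windows were found for 7 of the 9 members, and SLC29A2 and SLC28A3 are named only. Among the windows not printed, those of SLC28A1 and CDA held 1 match to the core each. The 2 DCTD windows held 2 and 1, and the first NT5C3A window 1 and its second 0. These 4 genes were not called for hypoxia with or without the 3 arrays, so the core is not particular to the genes shown.

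SLC29A1 encodes ENT1, the equilibrative carrier held to be the main route of gemcitabine into cells. Its log2 intensity (probe set 201802_at) was 6.21, 6.80 and 6.88 on FG normoxia replicates 1 to 3 and 6.37, 6.18 and 6.43 in FG hypoxia. In L3.6pl it was 6.16, 6.88 and 6.81 in normoxia and 6.07, 6.15 and 6.37 in hypoxia. In both lines replicates 2 and 3 of normoxia lay above all 3 hypoxic arrays and replicate 1 lay among them. The difference was -0.30 ± 0.214 in FG (adjusted p = 0.468) and -0.42 ± 0.214 in L3.6pl (adjusted p = 0.301), with 95% intervals of -0.78 to 0.17 and -0.89 to 0.05. Without the 3 arrays it was -0.51 ± 0.107 in FG (1.43-fold lower, limma adjusted p = 0.00969) and -0.74 ± 0.117 in L3.6pl (1.66-fold lower, adjusted p = 0.00265). Array quality weights also called it in both lines, at -0.50 (limma adjusted p = 0.0195) and -0.66 (adjusted p = 0.00822). Leaving out only the line's own normoxia replicate 1 gave -0.51 (adjusted p = 0.141) and -0.65 (adjusted p = 0.0880). The proliferation list was lowest in its group on those same arrays, at 8.02 and 9.28. Its level was above 6.30 on 7 of 12 arrays, so the probe set is near the middle of all genes. The second SLC29A1 probe set, 201801_s_at, gave -0.49 and -0.87, not called. Between the lines the difference was -0.01 in normoxia (interval -0.48 to 0.46) and -0.13 in hypoxia (interval -0.60 to 0.35).

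SLC29A2 encodes the related equilibrative carrier ENT2. It measured 8.28, 7.20 and 7.26 in normoxic FG and 7.22, 6.77 and 6.91 in hypoxic FG (probe set 204717_s_at). In L3.6pl it measured 7.43, 6.59 and 6.70 in normoxia and 6.69, 6.21 and 6.57 in hypoxia. Replicate 1 was the highest of the 3 arrays in each of the 4 groups. The hypoxia difference was -0.62 ± 0.302 in FG (adjusted p = 0.255) and -0.41 ± 0.302 in L3.6pl (adjusted p = 0.500), with overlapping groups. Without FG normoxia replicate 1 the FG value was -0.27 (limma adjusted p = 0.599). Against FG, L3.6pl was at -0.68 in normoxia (adjusted p = 0.218) and at -0.47 in hypoxia (adjusted p = 0.357), where the 3 L3.6pl arrays all lay below the 3 FG arrays. Within same-numbered arrays of the 2 lines the difference, L3.6pl minus FG, was -0.85, -0.61 and -0.56 in normoxia and -0.53, -0.56 and -0.34 in hypoxia, lower in 6 of 6 pairs. With those pairs as blocks SLC29A2 was called in both, with -0.68 ± 0.0947 in normoxia (limma adjusted p = 0.00146) and an adjusted p of 0.00575 in hypoxia. That fit was chosen after seeing the data. Of 25 alternative settings, 22 in normoxia and 24 in hypoxia left SLC29A2 uncalled between the lines. Of its 5 probe sets, 1553540_a_at differed by -0.47 between hypoxia and normoxia in FG (adjusted p = 0.0650), and the other 3 lay below 6.30 on every array. Between the lines 1553540_a_at gave -0.37 in normoxia (limma adjusted p = 0.184) and -0.22 in hypoxia (adjusted p = 0.413), not called.

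The concentrative carriers SLC28A1 (CNT1) and SLC28A3 (CNT3), which use the sodium gradient to take up nucleosides, lay below 6.30 on all 12 arrays. The deposited values hold no detection call, so these levels cannot be told from background. SLC28A1 ranged from 4.58 to 5.21 and SLC28A3 from 3.90 to 4.39. Neither gene was called in any comparison, and their group means lay between 4.85 and 4.94 and between 4.05 and 4.18. The hypoxia differences were -0.09 ± 0.164 and -0.02 ± 0.164 for SLC28A1, and 0.00 ± 0.113 and 0.09 ± 0.113 for SLC28A3, in FG and L3.6pl.

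DCK, the activating kinase, stood higher with hypoxia in FG and lower in L3.6pl, neither past the test. Its log2 intensity was 7.86, 8.71 and 8.96 in normoxic FG and 9.09, 8.82 and 8.83 in hypoxic FG. In L3.6pl it was 8.23, 8.56 and 8.82 in normoxia and 8.28, 7.86 and 8.34 in hypoxia. The groups overlapped in both lines. The difference was 0.40 ± 0.261 in FG (limma adjusted p = 0.420), which was 0.08 without FG normoxia replicate 1, and -0.38 ± 0.261 in L3.6pl (adjusted p = 0.474). Without the 3 arrays DCK was called in L3.6pl at -0.62 ± 0.176 (adjusted p = 0.0355), while FG stood at 0.08 (adjusted p = 0.823). The test of the difference between the lines' effects gave -0.78 ± 0.370 (adjusted p = 0.712) with all arrays and -0.70 (adjusted p = 0.355) without the 3, so a line-dependent effect was not shown. In hypoxia, all 3 L3.6pl arrays lay below all 3 FG arrays, by -0.75 ± 0.261 (1.69-fold lower, adjusted p = 0.0763). Same-numbered pairs differed by -0.81, -0.96 and -0.50 there and by 0.37, -0.15 and -0.15 in normoxia. The hypoxic difference stayed uncalled in 19 of 25 alternative settings, with a limma adjusted p of up to 0.222. It was called with pairs as blocks (adjusted p = 0.00310), a fit chosen after seeing the data, and without the 3 arrays (-0.84, adjusted p = 0.00505). The call was also made without FG normoxia replicate 1 (adjusted p = 0.0133) and with cyclic loess (adjusted p = 0.0361). Array quality weights (adjusted p = 0.0137) and only the hypoxic groups in the fit (adjusted p = 0.0240) gave it too.

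CDA, the deaminase that inactivates gemcitabine, lay below 6.30 on all 12 arrays, between 4.91 and 5.86. Its group means rank as FG normoxia 5.07 ± 0.136, L3.6pl normoxia 5.25 ± 0.339, FG hypoxia 5.31 ± 0.162 and L3.6pl hypoxia 5.50 ± 0.311 (SD, n = 3 each). No group in that order stands clear of its neighbour. The hypoxia difference was 0.24 ± 0.191 in FG and 0.25 ± 0.191 in L3.6pl (limma adjusted p = 0.534 and 0.535).

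DCTD, which deaminates dCMP and the gemcitabine monophosphate, was the member with the largest called difference between the lines. It measured 9.35, 8.53 and 8.72 in normoxic FG and 8.37, 8.58 and 8.70 in hypoxic FG, against 9.68, 9.35 and 9.34 and then 9.28, 9.45 and 9.68 in L3.6pl. In hypoxia the lowest L3.6pl array lay above the highest FG array, and the difference was 0.92 ± 0.201 (limma adjusted p = 0.0101). In normoxia FG replicate 1, at 9.35, overlapped L3.6pl, and the difference of 0.59 ± 0.201 was not called (adjusted p = 0.0962). Same-numbered pairs were higher in L3.6pl in 6 of 6 cases, by 0.34, 0.82 and 0.62 in normoxia and 0.91, 0.87 and 0.98 in hypoxia. The normoxic difference stayed uncalled in 20 of 25 alternative settings, with a limma adjusted p of up to 0.309. Among those that called it were pairs as blocks (adjusted p = 0.00446), a fit chosen after seeing the data. The others included the fits without FG normoxia replicate 1 (0.83, adjusted p = 0.00861) and without the 3 arrays (0.72, adjusted p = 0.00858). Probe set 201571_s_at gave 0.97 in normoxia (adjusted p = 0.00123) and 1.04 in hypoxia (adjusted p = 0.000507), and 201572_x_at gave 0.67 (adjusted p = 0.0638) and 0.89 (adjusted p = 0.0120), tested over all probe sets. All 3 probe sets were thus called in hypoxia. For hypoxia in FG the 3 probe sets differed in sign, at -0.31, 0.27 and -0.27, and none was called.

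NT5C3A encodes a cytosolic nucleotidase that removes the phosphate from pyrimidine monophosphates. Its log2 intensity was 10.48, 10.16 and 10.20 in normoxic FG, 10.24, 10.38 and 10.62 in hypoxic FG, 10.96, 10.59 and 10.83 in normoxic L3.6pl and 11.13, 11.01 and 11.33 in hypoxic L3.6pl. At either oxygen level every L3.6pl array lay above every FG array. The difference between lines was 0.51 ± 0.144 in normoxia (limma adjusted p = 0.0449) and 0.74 ± 0.144 in hypoxia (adjusted p = 0.00501). The normoxic call is near the threshold and ended without any of 7 single arrays, FG hypoxia replicate 2, FG normoxia replicates 2 and 3, L3.6pl hypoxia replicates 1 and 2 and L3.6pl normoxia replicates 1 and 3 (adjusted p from 0.0516 to 0.156). With same-numbered pairs as blocks, a fit chosen after seeing the data, it was stronger (adjusted p = 0.00442). The pairs differed by 0.48, 0.43 and 0.63 in normoxia and 0.89, 0.63 and 0.71 in hypoxia. Hypoxia gave 0.13 ± 0.144 in FG and 0.36 ± 0.144 in L3.6pl (adjusted p = 0.176), where the 3 hypoxic arrays lay above the 3 normoxic ones without passing the test. Array quality weights called that L3.6pl difference, at 0.43 (limma adjusted p = 0.0178). NT5C3A had 1 probe set.

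By the test, 2 of the members thus separated the lines in hypoxia, and SLC29A2 and DCK joined them as genes whose arrays did not overlap. In all, 4 of 9 members did not overlap between lines in hypoxia, against 32.1% of all genes, and 1 of 9 in normoxia, against 28.1%. For hypoxia the counts were 0 of 9 in FG, against 27.9%, and 1 of 9 in L3.6pl, against 24.4%. With same-numbered pairs as blocks, 2 members were called higher and 1 lower in L3.6pl in normoxia, and 2 higher and 2 lower in hypoxia. That fit, chosen after seeing the data, called 23.1% of all genes in normoxia (12.2% higher and 10.9% lower) and 30% in hypoxia (17.9% higher and 12.1% lower). Of the 17 markers of other cell types, 1 was called lower in L3.6pl in normoxia, COL3A1 at -5.42, and 10 had positive and 7 negative differences, with a median of 0.02. In hypoxia COL3A1 (-4.93) and COL1A1 (-1.43) were called lower and PECAM1 (0.98) higher, with a median of -0.02. The mean of the 17 was 5.06 to 5.17 in normoxic and 5.18 to 5.22 in hypoxic FG, and 4.82 to 4.85 and 4.92 to 5.03 in L3.6pl. Their part in the members' differences was not tested.

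**Figure D3:**
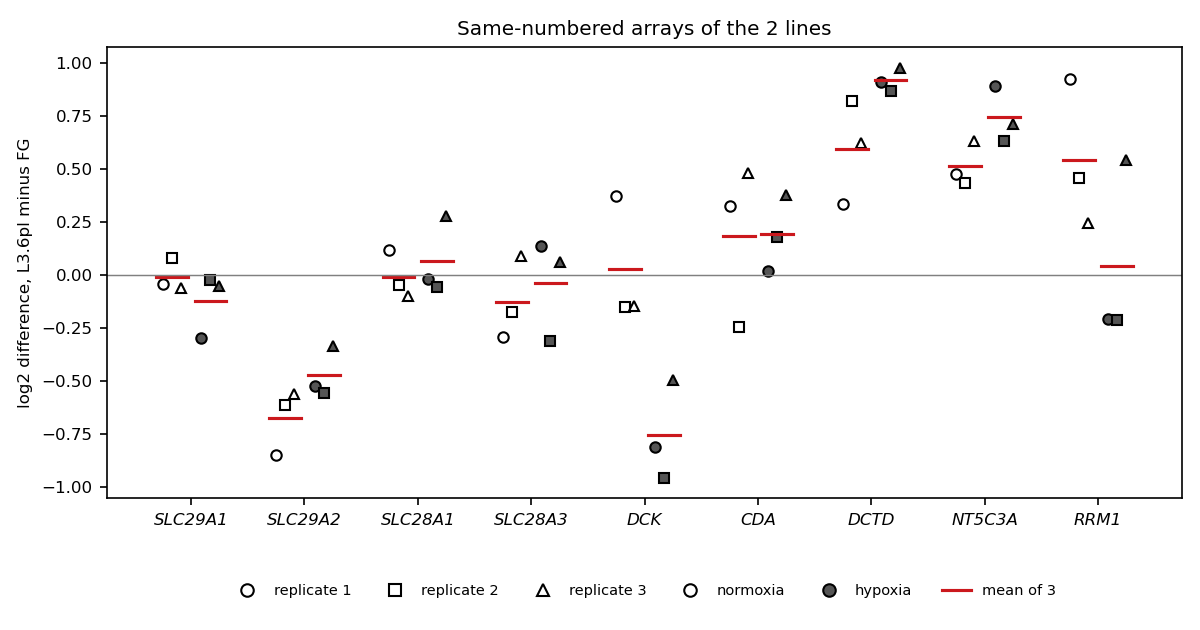
Log2 difference between same-numbered arrays, L3.6pl minus FG, for the 9 genes, with open symbols for normoxia, filled symbols for hypoxia, marker shape for the replicate number and a red line for the mean of 3 pairs. DCTD and NT5C3A lie above 0 and SLC29A2 below 0 in all 6 pairs, and DCK lies below 0 in the 3 hypoxic pairs.

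RRM1 is the large subunit of ribonucleotide reductase, which makes deoxynucleotides and is inhibited by gemcitabine diphosphate. It measured 8.67, 9.91 and 10.00 in normoxic FG and 9.75, 9.32 and 9.40 in hypoxic FG. In L3.6pl it measured 9.59, 10.36 and 10.24 in normoxia and 9.54, 9.11 and 9.94 in hypoxia. As for SLC29A1, the normoxic replicate 1 was the lowest of its group in both lines. That FG array, at 8.67, is also the lowest of all 12. The hypoxia difference was -0.04 ± 0.349 in FG and -0.54 ± 0.349 in L3.6pl (limma adjusted p = 0.970 and 0.439). Without the 3 arrays it was -0.46 in FG (adjusted p = 0.0807) and -0.98 ± 0.178 in L3.6pl (1.97-fold lower, adjusted p = 0.00487), where 26 of 28 proliferation genes were also called lower. Array quality weights also called RRM1 in L3.6pl, at -0.86 (limma adjusted p = 0.0184). The second RRM1 probe set, 201476_s_at, gave 0.14 and -0.79, not called. On L3.6pl hypoxia replicates 1 to 3 that probe set read 9.30, 8.69 and 8.23. There replicate 3, an array left out, was the lowest of its group and not the highest. Between lines RRM1 was at 0.54 in normoxia and 0.04 in hypoxia, with 95% intervals of -0.23 to 1.31 and -0.73 to 0.81.

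**Figure D4:**
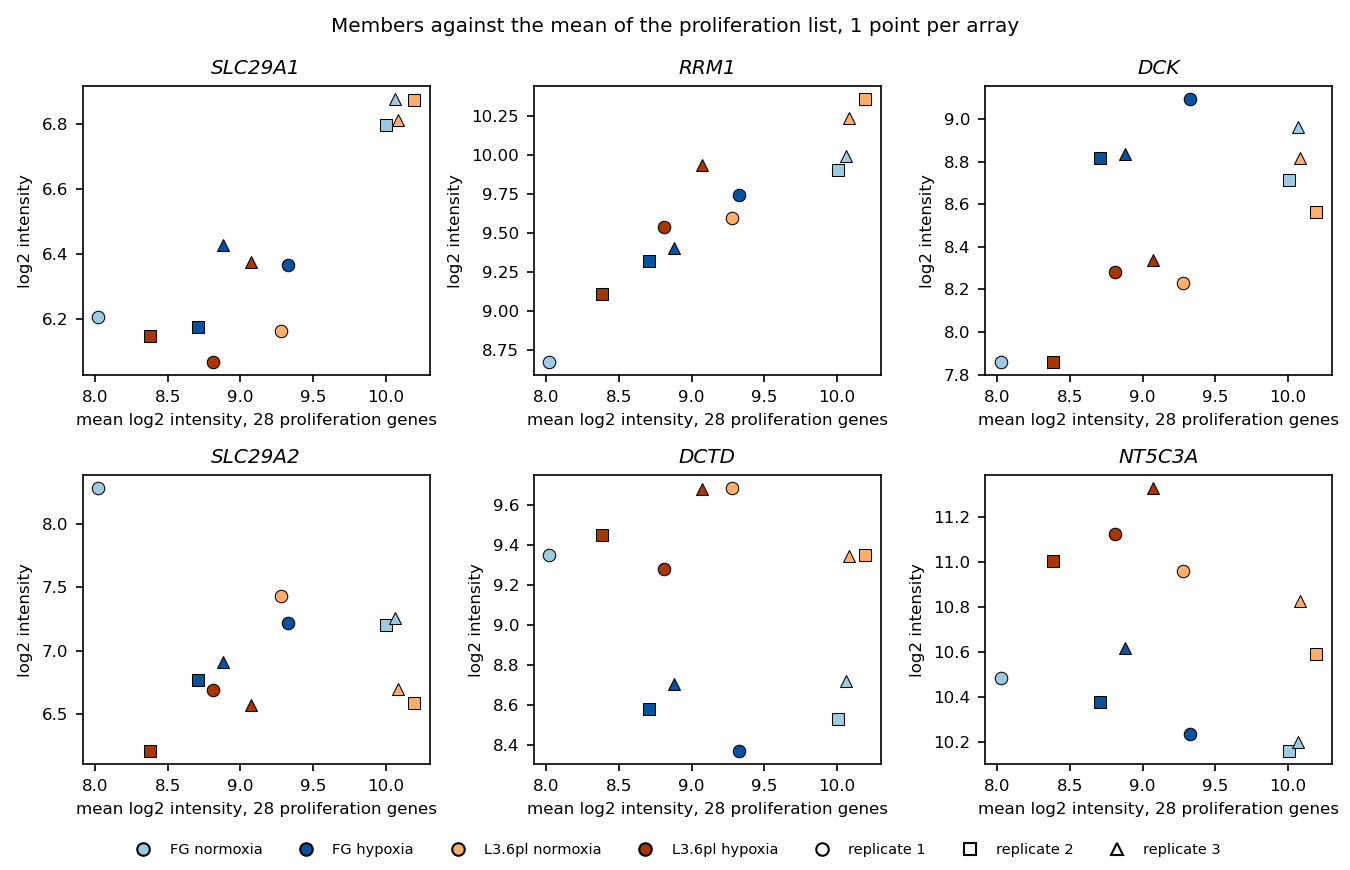
Log2 intensity of members (y axis) against the mean log2 intensity of the 28 proliferation genes (x axis), 1 point per array, coloured by group with marker shape for the replicate number. FG normoxia replicate 1 is the array with the lowest list mean, 8.02, and the lowest RRM1 level, 8.67.

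For each member, the 3 genes most alike over the 12 arrays were taken by Pearson r among genes above the median of all means. Arrays of one group share line and oxygen level, so r is given as a description. SLC29A1 was most like the proteasome subunit PSMC2 (0.956), the cyclin CCNA2 (0.954) and ALKBH8 (0.947). RRM1 was most like the proteasome subunits PSMD6 (0.968) and PSMC1 (0.967) and the cell cycle kinase CDK2 (0.964). DCK was most like PHF5A (0.963), the mitochondrial ribosomal protein MRPL36 (0.957) and CKS1B (0.955), which binds cyclin-dependent kinases. SLC29A2 was nearest to RCBTB1 (0.981), PFKFB2 (0.941) and DHCR7 (0.941). DCTD was nearest to RABEP2 (0.977), MCFD2 (0.975) and COL4A6 (0.972), and NT5C3A to ZNF23 (0.989), GPRC5C (0.974) and DYM (0.972). For the dim members the highest r was 0.915 for CDA with LINC02709, 0.820 for SLC28A1 with MAP3K19 and 0.815 for SLC28A3 with C10orf67.

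The other genes of nucleoside uptake, phosphorylation, dephosphorylation and export formed a list of 33, of which 31 were measured. NME2 and UCK2 are covered here by probe sets that name several genes. In FG hypoxia 1 of 31 rose and 5 fell, beside 4.24% and 6.47% of all genes, and in L3.6pl 1 rose and 4 fell, beside 3.89% and 2.97%. The median changes were -0.15 and -0.20, against -0.03 and -0.02 over all genes. SAMHD1, which degrades deoxynucleotide triphosphates and the active form of several nucleoside drugs, fell in both lines, by 1.05 ± 0.197 in FG (limma adjusted p = 0.00733) and by 1.68 ± 0.197 in L3.6pl (adjusted p = 0.00108). Its arrays were 7.96, 7.71 and 8.31 in normoxic FG, 6.80, 7.16 and 6.86 in hypoxic FG, 8.95, 8.55 and 8.48 in normoxic L3.6pl and 7.13, 7.16 and 6.65 in hypoxic L3.6pl. The normoxic and hypoxic arrays of SAMHD1 did not overlap in either line.

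CTPS1, which makes CTP, fell by 1.44 ± 0.394 in FG (limma adjusted p = 0.0406) and by 1.63 ± 0.394 in L3.6pl (adjusted p = 0.0323), calls that ended in 7 and 8 of 23 alternative settings. In FG the lysosomal carrier SLC29A3 fell by 0.57 (adjusted p = 0.00949) and the nucleotide exporters ABCC4 and ABCC5 fell by 0.88 (adjusted p = 0.0336) and 0.93 (adjusted p = 0.0135). ABCC4 lost its call in 8 of 23 settings, and averaging all probe sets gave -0.46 for ABCC4 and -0.37 for ABCC5. The dim carrier SLC28A2 rose by 0.29 in FG (adjusted p = 0.0388), a call that ended in 13 of 22 settings. In L3.6pl the mitochondrial kinase CMPK2 fell by 1.72 (adjusted p = 0.00806) and the polymerase subunit POLA1, which starts DNA synthesis, by 1.43 (adjusted p = 0.00807).

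NT5E, the surface nucleotidase CD73, rose in L3.6pl from 4.11, 4.38 and 5.11 in normoxia to 6.76, 7.07 and 8.41 in hypoxia, a change of 2.88 ± 0.497 (limma adjusted p = 0.00734). In FG it was 4.43, 4.04 and 4.88 in normoxia and 5.04, 4.77 and 6.37 in hypoxia, 0.95 ± 0.497 (adjusted p = 0.294). NT5E lay above 6.30 on 4 of 12 arrays and below it on all 6 normoxic ones, where its level cannot be told from background, so the sizes of these changes depend on that low level. The difference between the lines' effects was 1.93 ± 0.703 (adjusted p = 0.524). It was called with same-numbered pairs as blocks (adjusted p = 0.00872), as was TK2 (0.76, adjusted p = 0.0227). That fit, chosen after seeing the data, called 2 of the 31 for the difference of effects. Over all genes it called 703 of 19775, against 5 in the main fit. The other reductase subunits did not pass for hypoxia: RRM2 was at 0.02 in FG and -0.98 in L3.6pl, and RRM2B at -1.13 (adjusted p = 0.0504) and -0.85. Without the 3 arrays both were called in both lines, RRM2 at -0.85 (adjusted p = 0.0240) and -1.41 (adjusted p = 0.00346), and RRM2B at -1.15 (adjusted p = 0.00232) and -1.31 (adjusted p = 0.00194). CMPK1, the kinase of the second phosphorylation, was at 0.25 and 0.08, and the nucleotidase NT5C2 at -0.34 and -0.03. Without the 3 arrays, 1 of 31 was called higher and 10 lower in FG, beside 7.06% and 12.5% of all genes in that fit. In L3.6pl 1 was called higher and 11 lower, beside 7.89% and 13.2%.

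**Figure D5:**
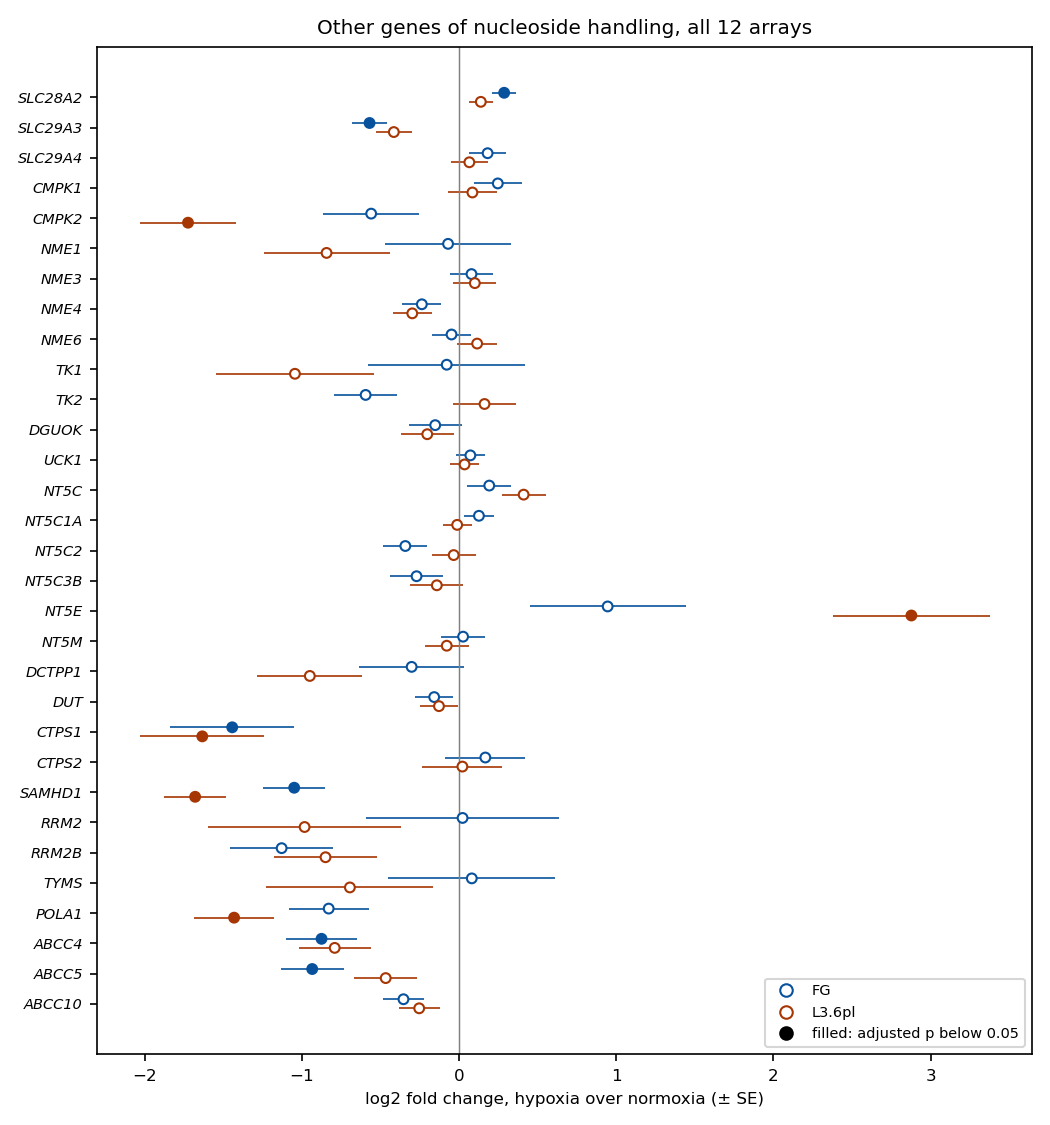
Log2 fold change of hypoxia over normoxia (± SE, all 12 arrays) for the 31 measured genes of the wider nucleoside list in FG and L3.6pl; filled points passed the test. SAMHD1 and CTPS1 fell in both lines and NT5E in L3.6pl has the highest value, 2.88.

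Between the lines, 2 of the 31 were higher and 2 lower in L3.6pl in normoxia, near the 5.16% and 5.54% of all genes. In hypoxia 5 were higher and 1 lower, beside 10% and 6.72% of all genes. The uridine-cytidine kinase UCK1 was higher by 0.65 and 0.61 (limma adjusted p = 0.00111 and 0.00104), and the mitochondrial deoxynucleoside kinase TK2 by 0.78 (adjusted p = 0.0309) and 1.54 (adjusted p = 0.000480). ABCC4 was lower by -1.34 (adjusted p = 0.00346) and -1.26 (adjusted p = 0.00346) in normoxia and hypoxia. RRM2B was lower in normoxia by -1.22 (adjusted p = 0.0368). In hypoxia ABCC5 was higher by 1.15 (adjusted p = 0.00261), NT5E by 2.02 (adjusted p = 0.0179) and NT5C2 by 0.50 (adjusted p = 0.0317). Of 24 alternative settings the calls ended in 5 for TK2 and 7 for RRM2B in normoxia, and in 4 for NT5E and 9 for NT5C2 in hypoxia. Averaging all probe sets gave 0.51 and 0.93 for TK2, and in hypoxia -0.77 for ABCC4, 0.43 for ABCC5 and 0.18 for NT5C2.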

How the data were processed

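RNA of 12 samples (2 lines, normoxia or hypoxia, 3 arrays each) was measured on Affymetrix arrays. The deposited values are linear intensities, for which the submitters' processing notes name RMA. The RMA version and settings are unknown here. In all, the table holds 54675 probe sets. Of these, 41091 carry 1 gene symbol in the platform annotation and 1801 carry several, which were not used, leaving 19775 genes, and each gene was represented by its brightest probe set, by mean over the 12 arrays. Array medians lay between 39.1 and 41.4. Read depth does not apply to arrays, and precision is limited by their number: an exact permutation test of 3 against 3 cannot go below 0.1.

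Log2 values were fitted in limma 3.58.1 (R 4.3.3) with 4 group means, lmFit and eBayes, with 8 residual degrees of freedom, and called at an adjusted p below 0.05 (Benjamini-Hochberg over all genes). The fit was tested only on simulated data with noise independent between arrays. Same-numbered arrays here shared deviations, which that test does not cover. All 9 members are named. From the wider nucleoside list the up to 6 called genes of smallest adjusted p per comparison are named, with RRM2, RRM2B, CMPK1, SAMHD1 and NT5C2 always. The members and lists were chosen with earlier results of these data known.

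Replicate numbers were checked for pairing over 9887 genes. Deviations of same-numbered arrays of the 2 lines at one oxygen level correlated at 0.804, 0.663 and 0.777 in normoxia and 0.405, 0.546 and 0.488 in hypoxia. The labels name no shared day or batch, so this pairing comes from the data, and the fit with same-numbered pairs as blocks was chosen after seeing the data. Alternatives were normalization, centring, a filter on dim genes, the probe set rule, moderation, array weights, an added 16, the samples in the fit, blocks, left-out arrays and a stricter threshold. Promoter sequences are those of RefSeq for GRCh38.p14.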

Additional observations from a re-analysis of the deposited data

How the results depend on the processing

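The counts of members called changed as follows. They are not read as results about the members, since a setting can also change how many of all genes are called. That number is given for the fits without the 3 arrays and with blocks, and not for the other settings. For hypoxia in FG the count of 0 became 1 with array quality weights (SLC29A1), with the replicate block (SLC29A2) and without the 3 arrays (SLC29A1). In L3.6pl, 0 became 3 with array quality weights, with SLC29A1 and RRM1 lower and NT5C3A higher in hypoxia. It also became 3 without the 3 arrays, with SLC29A1, DCK and RRM1 all lower. The weights were estimated from these same data. Without the 3 arrays, 19.6% of all genes were called for hypoxia in FG and 21.1% in L3.6pl, against 10.7% and 6.86% in the main fit. That fit called 13.1% between lines in normoxia and 22.3% in hypoxia. The replicate block called 2810 of 19775 genes between lines in normoxia. Between lines in normoxia, 1 became 0 at an adjusted p below 0.01, with cyclic loess, with intensity trend and robust moderation and with only the groups compared. It was also 0 with all probe sets tested singly, read from the main probe sets, although the DCTD probe set 201571_s_at was called there. It became 2 with the mean of all probe sets, 2 with the replicate block, 2 without the 3 arrays, 3 with array quality weights and 3 with the replicate block of number by oxygen. Between lines in hypoxia, 2 became 1 at an adjusted p below 0.01, 4 with that last block, and 3, with DCK, with cyclic loess, with array quality weights, with only the groups compared and without the 3 arrays. Leaving out each array in turn gave 0 to 2 for the lines in normoxia. It gave 2 to 3 in hypoxia and 0 for the rest. The difference of hypoxia effects stayed at 0 under every setting run.

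The hypoxia and normoxia groups of a line share replicate numbers. Deviations of same-numbered arrays correlated at -0.27, -0.23 and 0.26 in FG and -0.05, -0.11 and 0.46 in L3.6pl. These values differ in sign, so no pairing common to all replicates was seen across oxygen, and replicate 3 was positive in both lines. The labels do not say what the numbers mean. With the replicate block SLC29A2 was called in FG at -0.62 (adjusted p = 0.0306), and 2992 genes were called in FG and 2130 in L3.6pl, against 2117 and 1357. Pairs as blocks raised the calls between lines from 2116 to 4576 in normoxia and from 3310 to 5935 in hypoxia, and for the difference of effects from 5 to 703. They changed no other call of a member than those given. No called member changed sign. The arrays give no detection limit, so levels of CDA, SLC28A1 and SLC28A3 show no more than that they were low.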
